A study of Nicotiana tabacum with 8 samples.

Results

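The MYB unigenes c82962_g2 and c44821_g1 of tobacco leaves were followed through all 8 RNA-seq libraries of the series. A unigene is a transcript model assembled from the reads without a reference genome. The study named c82962_g2 MYB39 and listed c44821_g1 as MYB306 among its cold-responsive transcription factors and simply as MYB among its qPCR targets. Both are here because their changes after cold treatment went in opposite directions, so these changes chose them and are described without a test. They are 2 of 135146 unigenes in the deposited table and 2 of the 31884 that passed a filter on low values, which asked for an abundance of 1 or more in 2 or more libraries.

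The libraries, made from the top leaves of each plant, came from the cultivars (ecotypes) CB-1 and K326 at the 6-leaf stage, with 2 libraries in each of 4 groups. Control plants of CB-1 (CC1 and CC2) and of K326 (KC1 and KC2) grew with light periods at 28 °C and dark periods at 24 °C. Plants of CB-1 (CT1 and CT2) and of K326 (KT1 and KT2) given cold were moved to 4 °C for 1 day. Each library pooled leaves of 6 plants. The study states, in its account of sequencing, that experiments were repeated 2 times and calls the libraries of a group replicates. Neither this nor the labels say whether the libraries of a group came from separate growth experiments, so the spread between them may be technical. A single time and temperature of cold were sampled. The sources used here name no leaf marker among the unigenes, and the tissue label was therefore not checked against markers.

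MYB proteins are transcription factors that bind DNA through repeated helical units and form a large family in plants, where members control phenylpropanoid metabolism, the wax and suberin layers that seal plant surfaces, cell fate and responses to stress. In Arabidopsis, MYB39 is known as an activator of suberin deposition in the root endodermis. The name MYB306 goes back to a MYB protein of snapdragon. The study gave the names by sequence similarity to proteins in UniProt, and a role in tobacco does not follow from them. The assembled sequences of the unigenes were not analysed here, and no place in the tobacco genome is given for them.

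Only the primers of the study's qPCR assay show bases of c44821_g1. They are printed because they define which transcript the study called MYB. Both run from 5′ to 3′, are 20 bases long and have a GC content of 50% (forward) and 55% (reverse). No primers of c82962_g2 are among those listed. The study reported similar general trends by qPCR and RNA-seq over its target genes, and qPCR values of c44821_g1 were not used here.
c44821_g1 forward primer: cgagagatgttatcggcact
c44821_g1 reverse primer: tcaaagggacagtgggagag

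Values are the deposited log2(abundance + 1), where the abundance was estimated with RSEM and the scaling behind it is not named. The study lists the high-quality reads of each library. In each group the first library had fewer than the second, most clearly in CB-1 cold and K326 control leaves. Read counts of single unigenes are not in the table, and the depth behind a value is unknown. Levels are therefore compared between libraries and not between the 2 unigenes. Across the tested unigenes, the control libraries did not pair by cultivar: Pearson's r was 0.961 between CC1 and KC2 and 0.947 between CC2 and KC1, against 0.935 between CC1 and CC2 and 0.913 between KC1 and KC2. Unigenes present in the cold libraries of a single cultivar showed the same crossing. Of 357 tested unigenes with an abundance of at least 1 in CT1 and CT2 and a value of 0 in KT1 and KT2, 39.8% were present in CC1 and 38.9% in KC2, but 5.88% in CC2 and 10.4% in KC1. Of 399 with the reverse pattern, 42.1% were present in CC2 and 47.1% in KC1, but 8.02% in CC1 and 6.52% in KC2. The libraries labelled CC2 and KC2 thus went against their labels in these unigenes. The groups were kept as labelled, whether labels were exchanged was not tested, and contrasts that rest on control libraries are given below also without CC2 and KC2, a choice made after seeing the data.

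MYB39 was high in control leaves and low after cold in both cultivars. In the control libraries its log2 value was 4.48 in CC1 and 3.82 in CC2, and 4.04 in KC1 and 4.21 in KC2. After cold it was 1.18 in CT1 and 1.72 in CT2, and it was listed at 0 in KT1 and at 1.57 in KT2. All 4 cold libraries lay under all 4 control libraries, by at least 2.10 log2 units between the lowest control (CC2) and the highest cold library (CT2). This arrangement was shared by 33.3% of the tested unigenes, and the gap was wider in 419 of them. In these bulk leaf samples, fewer cells with the transcript and less of it per cell cannot be told apart. Because the gap is taken over all control libraries, it does not depend on which cultivar a control library is assigned to.

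On the linear scale the abundance of MYB39 was 17.2 ± 5.83 in CB-1 control and 1.78 ± 0.727 in CB-1 cold leaves (mean ± SD, n = 2), a ratio of 9.65. In K326 the control mean was 16.5 ± 1.47 (SD, n = 2), and the cold libraries had 0 and 1.96. The cold-minus-control difference was −2.70 log2 units for CB-1 and −3.34 for K326, each with a standard error of 0.53. Over the 4 pairs of a cold and a control library the CB-1 values ran from −3.30 to −2.10 and the K326 values from −4.21 to −2.47. A deeper difference was found for 561 of the tested unigenes (1.76%) in CB-1 and for 214 (0.671%) in K326.

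MYB306 showed the reverse order and was close to undetected in control leaves. Its log2 value was listed at 0 in CC1, KC1 and KC2 and at 0.58 in CC2. After cold it was 3.58 in CT1 and 3.27 in CT2, and 4.59 in KT1 and 3.24 in KT2. All 4 cold libraries lay above all 4 control libraries, by at least 2.66 log2 units between CC2 and KT2. Of the tested unigenes 20.6% had this arrangement, 425 of them with a wider gap.

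**Figure D1:**
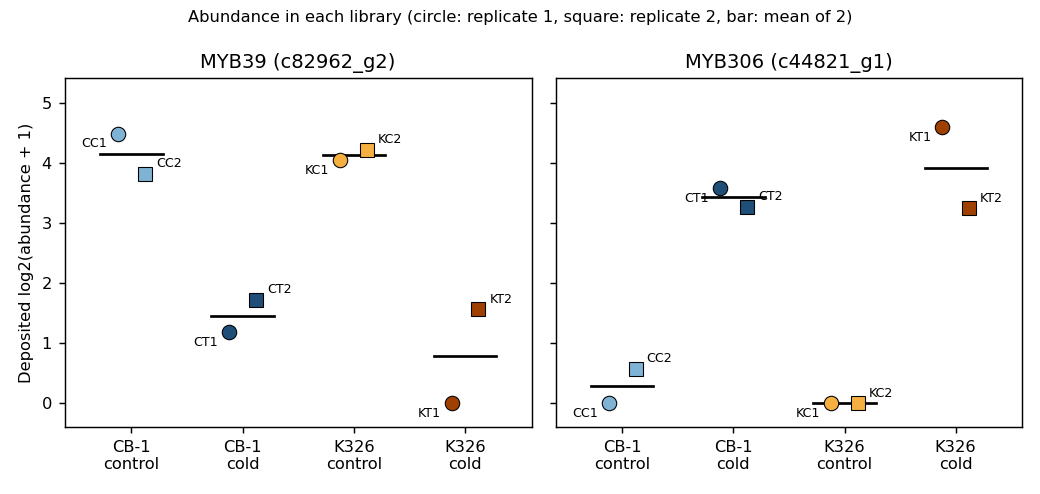
Deposited log2(abundance + 1) of MYB39 (left) and MYB306 (right) in each of the 8 libraries, by group, with replicate 1 as a circle, replicate 2 as a square and the mean of 2 as a bar. MYB39 lies between 3.82 and 4.48 in the control libraries and at or under 1.72 in the cold libraries, while MYB306 lies at or under 0.58 in the control and between 3.24 and 4.59 in the cold libraries.

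On the linear scale 3 of the cold libraries of MYB306 were close together, at 10.9 in CT1, 8.64 in CT2 and 8.44 in KT2, and KT1 stood above them at 23.0. The cold-minus-control difference was 3.13 log2 units in CB-1 (standard error 0.45), from 2.69 to 3.58 over the pairs of libraries, and 3.91 in K326 (standard error 0.45), from 3.24 to 4.59. A larger positive difference was found for 649 of the tested unigenes (2.04%) in CB-1 and 332 (1.04%) in K326. No linear fold change is given, since both K326 controls and 1 of the CB-1 controls were listed at 0. Whether a value listed at 0 stands for an absent transcript or for an estimate that failed cannot be read from the table. Of the 23949 tested unigenes with at least the CC2 value of MYB306 (0.58) in CC2, 3.73% were listed at 0 in CC1. This share takes in all higher CC2 values and the unigenes in which CC1 and CC2 differed as described above. It is therefore no rate of failed estimates, and the share among unigenes near 0.58 was not computed.

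These differences depend on how the low values are scaled. With a pseudocount of 0.1 in place of 1, the difference of MYB39 became −3.21 (CB-1) and −5.19 (K326). That of MYB306 became 5.34 (CB-1) and 7.13 (K326). Over all tested unigenes the median cold-minus-control difference was −0.20 for CB-1 and −0.31 for K326, and median-ratio scaling moved both to 0.00. With that scaling MYB39 had differences of −2.44 and −3.05 and MYB306 of 3.30 and 4.08 in CB-1 and K326. Without CC2 and KC2 the differences were −3.03 and −3.25 for MYB39 and 3.42 and 3.91 for MYB306. The directions were the same in all 18 alternatives run for each. With every cold library beyond every control library, leaving out libraries could not turn them. No support is drawn from this.

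Library KT1 held the extreme cold value of both unigenes. MYB39 was listed at 0 in it and MYB306 had its highest value there. The gap between KT1 and KT2 was 1.57 for MYB39 and 1.35 for MYB306, against a median gap of 0.28 over the tested unigenes, and it was wider in 3.96% of them for MYB39 and in 1914 unigenes for MYB306. In CB-1 cold leaves the gaps were smaller, at 0.54 for MYB39 and 0.31 for MYB306 against a median of 0.31. In both cultivars the first cold library lay further from the controls than the second for both unigenes.

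The same order was looked for among unigenes called after cold (limma with Benjamini-Hochberg adjustment, adjusted p under 0.05 and log2 difference over 1). It was more frequent than an even split, except among those that fell in CB-1, where the split was nearly even. In CB-1 the first cold library lay above the second in 64.3% of those that rose and under it in 50.7% of those that fell. In K326 the shares were 62% and 58.7%. A separate measure compares the cold libraries of both cultivars. Of the 3296 unigenes that rose in both by this test, 40.3% had their highest cold value in KT1 and 33.4% in CT1. Of the 4288 that fell in both, 26.2% had their lowest cold value in KT1 and 24.5% in CT1. Of the 16108 tested unigenes with at least the KT2 value of MYB39 in KT2, 386 (2.40%) were listed at 0 in KT1. This share takes in all higher KT2 values, and the share among unigenes near that value was not computed. What sets these libraries apart was not tested.

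Whether the cultivars differed was tested, since the choice of the unigenes did not rest on it. Each contrast was taken from a single limma fit of the 4 group means over all 31884 tested unigenes, with Benjamini-Hochberg adjustment. For 1 unigene with 2 libraries on each side, the smallest p-value of an exact two-sided permutation test is 0.333, and the limma p-values rest on the spread shared between unigenes.

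Between the control libraries as labelled, neither unigene differed detectably. For MYB39 the difference of K326 from CB-1 was −0.03 log2 units (95% interval −1.32 to 1.27, limma adjusted p = 1). Its closest control values were those of KC1 and KC2, 0.17 apart. Over all tested unigenes this pair had the lowest r of the control pairs (0.913). Across the cultivars, its values were nearest between CC1 and KC2 and between CC2 and KC1, so MYB39 followed the crossing only in part. Leaving out CC1 turned the difference to 0.31 and leaving out KC1 to 0.06. For MYB306 it was −0.29 (95% interval −1.39 to 0.81, limma adjusted p = 1), which became −0.58 without CC1 and 0 without CC2, the only control library in which this unigene had a value above 0. With a pseudocount of 0.1 it was −1.28. As labelled, the test called 0 unigenes (0% of those tested) in this contrast, with 1127 (3.53%) at an unadjusted p-value under 0.05 and 13 past the threshold without moderation of the variance. Without CC2 and KC2 it called 857, and the contrast was −0.45 for MYB39 and 0 for MYB306 (limma adjusted p = 1 for both), with a standard error of 0.996 for MYB39.

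Among the cold libraries, the values of both unigenes overlapped between the cultivars. From the lowest to the highest, MYB39 ran in the order KT1, CT1, KT2, CT2, and MYB306 in the order KT2, CT2, CT1, KT1. The difference of K326 from CB-1 was −0.67 for MYB39 (standard error 0.53, 95% interval −1.96 to 0.62, limma adjusted p = 0.701). For MYB306 it was 0.49 (standard error 0.45, 95% interval −0.61 to 1.59, limma adjusted p = 0.758). In this contrast 129 unigenes, or 0.405% of those tested, passed the threshold, 0.248% with the higher and 0.157% with the lower value in K326. The intervals still include differences of more than 1 log2 unit towards a lower MYB39 and a higher MYB306 in K326.

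This contrast does not use the control values, apart from the spread they share. With a pseudocount of 0.1 the difference of MYB39 was −2.00 and that of MYB306 was 0.52. The direction of both differences turned without KT1. The difference in cold leaves was then 0.11 for MYB39 and −0.18 for MYB306, and without KT2 it was −1.45 and 1.17. With the other libraries left out in turn it stayed between −0.94 and −0.40 for MYB39 and between 0.34 and 0.64 for MYB306.

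With the groups as labelled, the mean cold response of both unigenes was larger in K326, but both 95% intervals of the difference included 0. The response of K326 minus that of CB-1 was −0.64 for MYB39 (standard error 0.75, 95% interval −2.47 to 1.19, limma adjusted p = 0.877). For MYB306 it was 0.78 (standard error 0.64, 95% interval −0.78 to 2.34, limma adjusted p = 0.800). Without KT1 these values were 0.14 and 0.10, and with a pseudocount of 0.1 they were −1.97 and 1.80. Without CC2 and KC2 they were −0.22 and 0.49 (limma adjusted p = 0.989 and 0.954). Over all tested unigenes the test called 0 (0%), with 2934 (9.2%) at an unadjusted p-value under 0.05 and 143 past the threshold without moderation of the variance. A fit without CC2 and KC2 has a single control library per cultivar and takes its spread from the cold libraries alone. No fit with exchanged labels was run, so whether the count of 0 depends on the control labels was not tested.

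**Figure D2:**
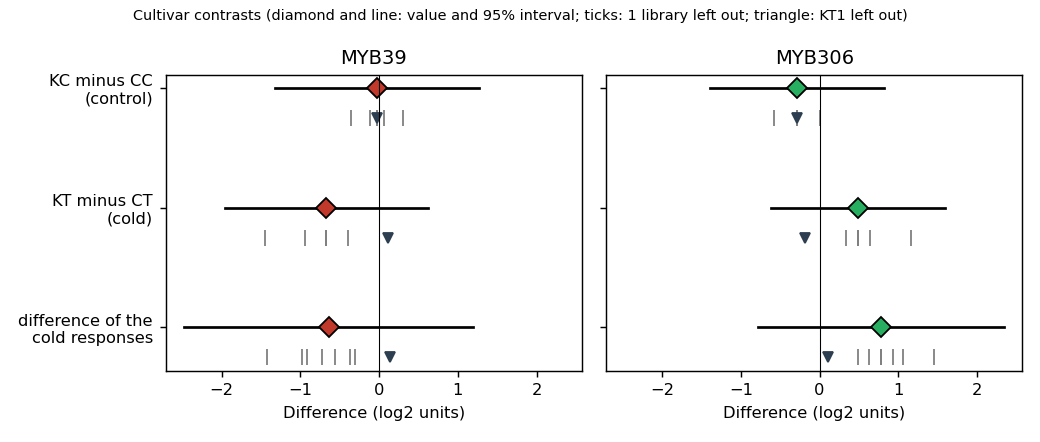
Contrasts between K326 and CB-1 for MYB39 (left) and MYB306 (right) in log2 units, with the value as a diamond, its 95% interval from limma as a line, and the values with 1 library left out as ticks (KT1 left out as a triangle). All intervals include 0, and without KT1 the cold contrast lies at 0.11 for MYB39 and at −0.18 for MYB306.

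The Trinity components, groups of assembled transcripts that share sequence, held few relatives of the unigenes. The component of MYB306 contains this unigene alone. That of MYB39 holds 1 further unigene, c82962_g1, which had a log2 value of 0.45 in CC1, 1.12 in KC2 and 0 in the other 6 libraries. CC1 and KC2 are also the control libraries most alike over all tested unigenes, whereas MYB39 was high in all control libraries. This further unigene did not pass the filter and was not tested. How the counting divided reads between the 2 unigenes of this component is not known.

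MYB39 was among the few listed transcription factors that were lower after cold. Besides the 2 MYB unigenes the study's list holds 28 factors, all of which passed the filter. It was chosen by the study on these libraries for large changes, and its counts are no independent evidence. In CB-1, 23 of them rose past the threshold and 2 fell by limma. Of all tested unigenes 32.9% passed it in this cultivar (15.5% rose and 17.4% fell). The factors past it in K326 numbered 26 that rose and 2 that fell, beside 34.2% of all tested unigenes (14.7% rose and 19.5% fell). Of the calls over all unigenes, 47.0% (CB-1) and 42.9% (K326) rose, and with median-ratio scaling 57.9% in either cultivar. The 28 had a median difference of 3.38 (CB-1) and 4.19 (K326), against −0.20 and −0.31 over all tested unigenes.

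The 2 that fell in both cultivars were UPBEAT1 (c112787_g1), a basic helix-loop-helix factor that in Arabidopsis controls the balance of reactive oxygen species in the root, and TCP19 (c68026_g1), of a family of growth regulators. The difference of UPBEAT1 was −3.55 (CB-1) and −3.84 (K326), with a standard error of 0.23. That of TCP19 was −3.61 (CB-1) and −3.27 (K326), with a standard error of 0.26. MYB39, at −2.70 and −3.34, lay above both in CB-1 and between them in K326.

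MYB306 lay within the range of the factors that rose. The 8 WRKY unigenes, whose family acts in defence and stress responses, had median differences of 3.61 and 4.35 in these cultivars, and 7 rose past the threshold in CB-1 and 8 in K326. The 10 AP2/ERF unigenes, the family of the cold regulators DREB and CBF, had medians of 2.71 and 4.54, and 8 and 10 of them rose. All 3 heat shock factors rose in both cultivars, with medians of 3.71 and 3.81, and so did the 3 NAC002 unigenes, with medians of 3.62 and 3.69. The values of MYB306 were 3.13 and 3.91. As with MYB306, 17 of the 23 listed factors that rose in both cultivars had their highest cold value in KT1. Of all tested unigenes that rose in both, 40.3% did. Since the list was chosen for large changes, nothing is concluded from this count. Unlike MYB39, UPBEAT1 and TCP19 did not have their lowest cold value in KT1: it was in KT2 for UPBEAT1 and in CT1 for TCP19.

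**Figure D3:**
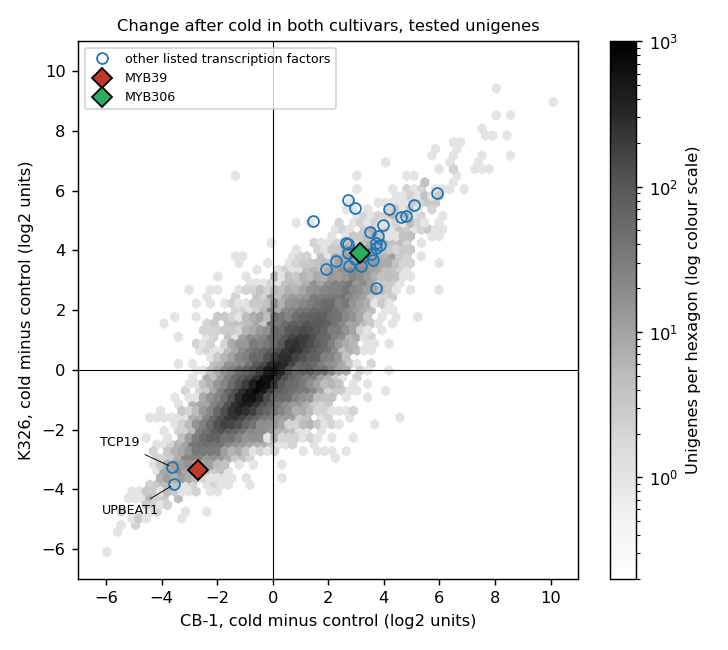
Cold-minus-control difference in CB-1 (x axis) and K326 (y axis), both in log2 units, for the tested unigenes as grey hexagons, the 28 other listed transcription factors as circles and the MYB unigenes as diamonds. MYB306 (3.13 and 3.91) lies among the factors that rose, and MYB39 (−2.70 and −3.34) lies near UPBEAT1 and TCP19.

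The unigenes with the most similar profiles were found by the root mean square difference over the 8 libraries, after each unigene was centred on its own mean. This measure is mostly set by the contrast between control and cold. It includes KT1, so that a shared extreme in this library is partly built into the choice. For MYB39 the nearest of 31883 were c84651_g1 (0.22 log2 units) and c81588_g1 (0.26), and for MYB306 they were c91510_g1 (0.20) and c72158_g1 (0.25). None of these 4 carries a name in the sources used here. They were lowest or highest in KT1 like the unigene they resemble: c84651_g1 had 1.29 in KT1 and 2.74 in KT2, and c91510_g1 had 4.34 in KT1 and 3.14 in KT2. Within 0.5 log2 units lay 184 unigenes for MYB39 and 247 for MYB306.

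Names or functions were at hand for 406 other tested unigenes, from the study's text and an excerpt of its annotation. The rows of that excerpt are ordered by how far the cold responses of the cultivars lie apart, so the named unigenes over-represent those that differ between the cultivars. The nearest to MYB39 was c92129_g1, a non-specific lipid-transfer protein, at a difference of 0.50. Lipid-transfer proteins bind lipids and several are known to act in the formation of the cuticle. Its log2 value was 8.39 in CC1 and 7.75 in CC2, and 8.33 in KC1 and 8.93 in KC2. After cold it was 6.31 in CT1 and 7.08 in CT2, and 4.49 in KT1 and 5.69 in KT2. Unlike MYB39, both K326 cold libraries of this unigene lay under both of CB-1.

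Next came HST (c69634_g2), an enzyme of the monolignol pathway, at 0.60, and TCP19 at 0.61. After cold, the HST values in CB-1 were 1.28 (CT1) and 0.70 (CT2), and those in K326 were 0 (KT1) and 0.03 (KT2). Among all tested unigenes these 3 ranked only at places 200, 546 and 619.

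The nearest named unigenes to MYB306 were the transcription factors WRKY42 (c83320_g1), at 0.28, GT-3A (c73618_g1), a trihelix factor, at 0.36, and BHLH92 (c71107_g1), at 0.39. WRKY42 had values from 0.40 to 0.54 in the control libraries, 3.97 in CT1 and 4.01 in CT2, and 4.69 in KT1 and 4.00 in KT2. GT-3A and BHLH92 were listed at 0 in all 4 control libraries. All 3 had their highest value in KT1, as MYB306 did.

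**Figure D4:**
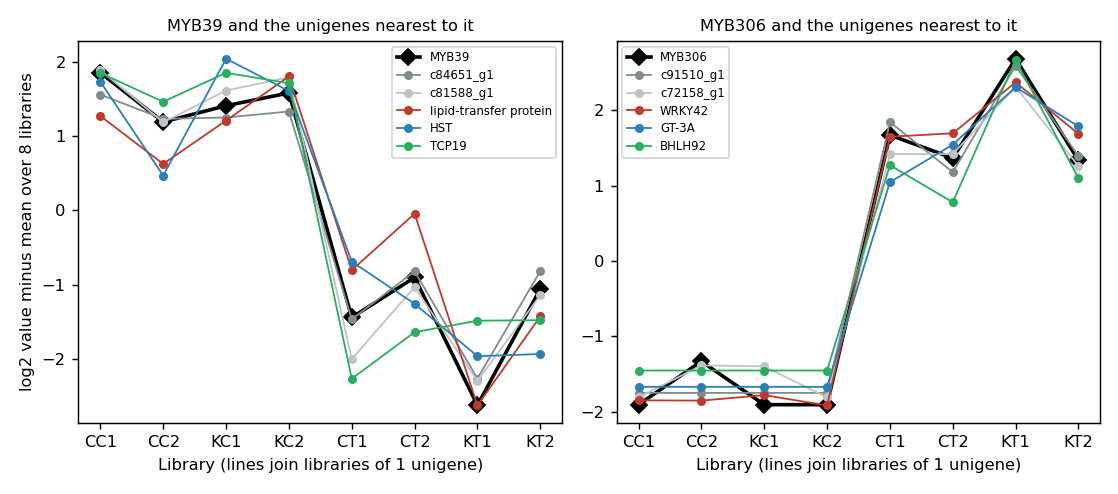
Log2 values of MYB39 (left) and MYB306 (right) in the 8 libraries, each minus its mean, with the 2 nearest unigenes of all and the 3 nearest with a name. Within the cold libraries MYB39 and its 2 nearest unigenes have their lowest value in KT1, and MYB306 and all 5 unigenes beside it have their highest there.

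Phenylpropanoid metabolism, a pathway that MYB factors are widely known to control, was represented by 8 named enzymes in that excerpt. They are not a sample of the pathway, and a difference between the cultivars is built into their choice. By limma 2 of the 8 rose past the threshold in CB-1 and 1 fell. The count in K326 was 3 in each direction. Of all tested unigenes 32.9% passed in CB-1 and 34.2% in K326. The 3 of 8 in CB-1 are close to that share, and the calls in K326 are above it. Since the list favours unigenes whose responses differ between the cultivars, nothing is concluded from these counts. The median difference was 0.54 in CB-1 and −0.03 in K326. No enzyme was linked to either MYB unigene by a test.

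HST, which joins hydroxycinnamoyl groups to shikimate on the way to lignin, had differences of −2.08 (CB-1) and −3.78 (K326), both past the threshold (standard error 0.44, limma adjusted p = 0.0130 and 0.00180). A homolog of isoflavone reductase (c80109_g1) had a difference of −0.05 in CB-1 (limma adjusted p = 0.958) and of −2.08 in K326 (limma adjusted p = 0.0203). GT6 (c74614_g3), a flavonoid glucosyltransferase, rose past the threshold in both cultivars, by 1.93 (CB-1) and 3.61 (K326; standard error 0.55, limma adjusted p = 0.0344 and 0.00423). PF3R4 (c74347_g1), an anthocyanin glucosyltransferase, had a difference of 1.68 in CB-1 (limma adjusted p = 0.201) and rose by 3.56 in K326 (limma adjusted p = 0.0247). RT (c85214_g3), an anthocyanidin glucosyltransferase named after its values were seen, had the larger difference in CB-1, where it rose by 2.50 (limma adjusted p = 0.00769), against 0.87 in K326 (limma adjusted p = 0.166).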

How the data were processed

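Leaf RNA of both cultivars was sequenced on an Illumina instrument. The authors assembled the reads into unigenes with Trinity, mapped them onto the unigenes with bowtie, estimated abundances with RSEM and deposited log2 values without read counts. The versions of these tools are not given in the sources used here. The most frequent low values in each library lie on log2(1 + a multiple of 0.01), so the deposited scale is log2(abundance + 1). Unigenes with an abundance of at least 1 in at least 2 libraries were tested with limma 3.58.1 in R 4.3.3 (4 group means, variance moderated along the mean, Benjamini-Hochberg adjustment) and called at an adjusted p-value under 0.05 and a log2 difference over 1 in size. The study's methods name a t-test. The alternative without moderation kept the 4 group means and their pooled variance, and a t-test of single pairs of groups was not run. The fit was tested on simulated data. Alternatives were another pseudocount, 2 other filters, 2 scalings, 2 forms of variance, the groups compared only, a replicate block, single libraries or CC2 and KC2 together left out and the 4 controls as 1 group. The members and lists were chosen with earlier results of these data known. Named were both MYB unigenes, their component relatives, the 2 nearest unigenes of all and the 3 nearest with a name, listed factors that fell in both cultivars and the 4 enzymes at the ends of the phenylpropanoid list by their mean difference over both cultivars.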

Additional observations from a re-analysis of the deposited data

How the results depend on the processing

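No test of MYB39 or MYB306 between the cultivars passed the threshold under any alternative, and adjusted p-values (limma with Benjamini-Hochberg adjustment, or the fit without moderation) ran from 0.239 to 1 in cold leaves and were at least 0.357 for the difference in response. A pseudocount of 0.1 gave cold-minus-control differences of −3.21 (CB-1) and −5.19 (K326) for MYB39 and of 5.34 and 7.13 for MYB306. With 1 library left out these ran for MYB39 from −3.03 to −2.37 for CB-1 and −4.12 to −2.56 for K326, and for MYB306 from 2.85 to 3.42 for CB-1 and 3.24 to 4.59 for K326, where a group left with 1 library is assumed to vary like the others. Between the control libraries the range was −0.36 to 0.31 for MYB39, with 0.06 without KC1 and 0.31 without CC1, and −0.58 to 0 for MYB306. Between the cold libraries it was −1.45 to 0.11 for MYB39 and −0.18 to 1.17 for MYB306, and for the difference in response −1.43 to 0.14 for MYB39 and 0.10 to 1.45 for MYB306. Without KT1 the values of MYB39 were above 0 in both contrasts, and that of MYB306 was under 0 between the cold libraries.

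The 129 unigenes past the threshold between the cold libraries became 0 with either other filter, with the groups compared only and with the replicate block. They became 295 with median-ratio scaling, 225 with quantile normalization, 217 without moderation, 432 without the trend, 820 with the 4 controls as 1 group and from 0 to 719 with 1 library left out, the highest without CT2. Without moderation 13 unigenes passed between the control libraries and 143 in the difference in response. Without CC2 and KC2, an alternative chosen after seeing the data, these became 857 and 735, and the unigenes past the threshold after cold numbered 5521 (CB-1) and 5920 (K326), against 10480 and 10918. Deviations of same-numbered libraries from their group means correlated at −0.376 for CC1 and KC1, the control groups whose libraries paired crosswise. The other pairs of groups lay between −0.0435 and 0.0445. Same-numbered libraries thus shared no clear positive deviation. With the replicate block the contrasts of both MYB unigenes kept their values (−0.67 and 0.49 in cold leaves, adjusted p = 0.720 and 0.781 by limma). The depth behind single values is unknown, and values listed at 0 limit MYB306 in control leaves and MYB39 in KT1.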
